A study of Mus musculus with 4 samples.

Results

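Non-cycling CD8 T cells were 2463 of the 26435 cells kept from CD45-enriched mammary tumours, in which the study set an agonist of innate RNA sensing, an inhibitor of respiration and both together against control. A cell was taken if it had at least 2 UMIs (unique molecular identifiers, 1 per captured RNA molecule) of Cd3d, Cd3e and Cd3g together and at least 2 of Cd8a and Cd8b1. It had no UMI of Cd4, Foxp3 or Lef1, fewer than 2 of Il13, Ccl1 and Penk, fewer than 2 of Mki67 and Top2a, and at most 1 of Csf1r and Adgre1. These genes chose the cells, so their levels are a description only, and they were left out of every comparison across genes. The combination library gave 900 of the CD8 cells, poly I:C 813, phenformin 390 and control 360.

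All tumours were orthotopic grafts of the MT4788 mammary tumour line in wild-type FVB mice, taken on day 4 and enriched for CD45 on magnetic beads. The combination group received Poly I:C with Phenformin, the poly I:C group Poly I:C with PBS, the phenformin group Saline with Phenformin, and the control group Saline with PBS. Each treatment was 1 library of 10000 loaded cells, over 90% of them CD45+ and negative for CD31 and EpCam, measured with droplet 3' RNA sequencing on the 10x platform; the age of the mice and the number of tumours behind a library were not given in the sources used here. With 1 library per treatment there was no replicate and no test between treatments: all 95% intervals cover counting error only, and UMI counts of 1 cell share their source.

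CD8 T cells recognise peptides on MHC class I and kill target cells by releasing perforin and granzymes. In tumours, long contact with antigen leads to a state with high inhibitory receptors such as PD-1 (Pdcd1), LAG-3 (Lag3) and TIM-3 (Havcr2), which is fed by a smaller stem-like pool that keeps the transcription factor TCF-1 (Tcf7). Poly I:C mimics viral double-stranded RNA and is sensed by TLR3 and by cytosolic RNA helicases. Phenformin, a relative of metformin, blocks the first complex of mitochondrial respiration.

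The CD8 gate held 4864604 UMIs in combination, 4870217 in poly I:C, 2893534 in phenformin and 2338770 in control, and the median cell had 4815.5, 5159, 6346 and 6015.5 UMIs in that order. The shallower cells were therefore those of both poly I:C-treated libraries. RNA of other lineages was present and differed between libraries. Summed macrophage or monocyte markers (14 genes) reached 945 CPM (counts per 1000000 UMIs of the gate) in combination, 877 in poly I:C, 720 in phenformin and 570 in control, against 18007 to 34717 CPM in the myeloid gate of the same libraries. Fibroblast markers (6 genes) were at 223 CPM in poly I:C and at 1.71 to 5.35 CPM in the other libraries, with Col1a1, Dcn, Pdgfra and Lum at 0 in control. Tumour epithelium markers (8 genes) were at 194 CPM in combination, 507 in poly I:C, 89.9 in phenformin and 126 in control, and endothelium markers (5 genes) at 107 CPM in phenformin and 10.3 to 26.1 elsewhere. No doublet caller was run. Of the barcodes, 94 occurred in more than 1 library, and 1 of these lay in the CD8 gate of more than 1 library.

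The markers fitted the label only in part. Cd8a was found in 95.8 to 97.9% of the gated cells and Cd8b1 in 88.9 to 92.9%, as the rule requires one or the other. Pdcd1 was detected in 89.5 to 95.4% and Cxcr6, a chemokine receptor of tissue-resident T cells, in 78.5 to 87.0% of cells. Gzmf, also given as a marker, had a UMI in only 45 combination, 45 poly I:C, 22 phenformin and 28 control cells, which is 5, 5.54, 5.64 and 7.78% of them. Its 10 highest cells held 79.6 to 94.1% of its UMIs in each library. Summed NK cell markers (10 genes) were at 305 to 593 CPM in the CD8 gate against 7761 to 10043 CPM in the NK gate, and the 5 γδ or innate-like T cell markers in the files at 1.03 to 5.18 CPM. Near the edges of the rule, 99, 66, 34 and 22 cells of combination, poly I:C, phenformin and control had exactly 2 Cd8a and Cd8b1 UMIs, while 78, 46, 20 and 27 cells met every other clause with only 1. Exactly 1 Mki67 or Top2a UMI was present in 183, 162, 82 and 98 of the gated cells in the same order.

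The question asked first was how many non-cycling CD8 T cells each tumour library held. They made up 10.9% of the kept cells in combination (95% exact binomial Clopper-Pearson interval 10.2 to 11.6%), 12.3% in poly I:C (11.5 to 13.1%), 7.15% in phenformin (6.48 to 7.87%) and 5.91% in control (5.33 to 6.53%). The intervals of both poly I:C-treated libraries lay above those of phenformin and control. The share was 1.84 times the control share in combination, 2.08 times in poly I:C and 1.21 times in phenformin. Among the 8342 cells with at least 2 Cd3 UMIs the gate held 29.4% in combination (27.8 to 31%), 37.7% in poly I:C (35.6 to 39.7%), 26.1% in phenformin (23.9 to 28.4%) and 22.1% in control (20.1 to 24.2%). On this base the intervals of combination and phenformin overlapped.

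Depth and single clauses of the rule entered these shares. When every cell was thinned to 2000 UMIs before gating, the share of all cells was 11.7% in combination, 12.4% in poly I:C, 7.96% in phenformin and 6.59% in control. Of thinned cells with at least 2 Cd3 UMIs it was 34.3% in combination (32.4 to 36.2%) and 32.5% in phenformin (29.8 to 35.2%), which also overlapped. The clause that a cell have no UMI of Lef1, a transcription factor of naive T cells, took the gate to 1523 from 1727 cells in combination, to 1252 from 1492 in poly I:C, to 648 from 814 in phenformin and to 604 from 788 in control. Cells that met the rule but for cycling genes, with 2 or more Mki67 and Top2a UMIs, were 34.3% of all CD8 cells in combination (31.8 to 36.9%), 23.8% in poly I:C (21.3 to 26.5%), 32.5% in phenformin (28.7 to 36.5%) and 32.7% in control (28.7 to 36.9%). The cycling share was thus lowest in the poly I:C library, and its interval did not meet those of the other 3.

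**Figure D1:**
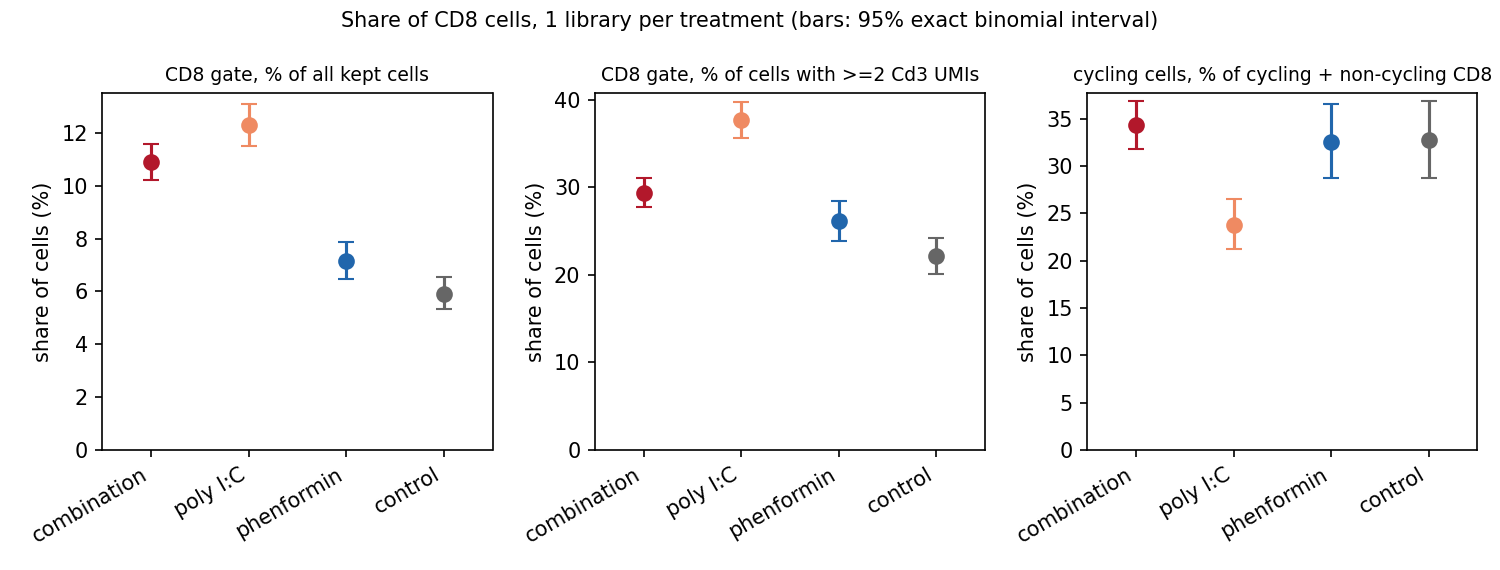
Share of CD8 cells in each library, with the non-cycling gate in percent of all kept cells (left) and of cells with at least 2 Cd3 UMIs (middle), and cycling cells in percent of cycling and non-cycling CD8 cells (right). Points are 1 library per treatment and bars are 95% exact binomial intervals; combination and poly I:C lie above phenformin and control on the left, and poly I:C is lowest on the right at 23.8%.

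To compare treatments within the gate, UMIs were summed over its cells and scaled to CPM. A gene was compared if its higher library reached 50 CPM and 30 UMIs, and it was counted as higher or lower at 1.5-fold or more on the scale log2(CPM + 5), on which all log2 ratios are given. This scale understates ratios of low genes. Combination over control had 285 of 3148 compared genes apart (9.05%), with 102 higher (3.24%) and 183 lower (5.81%). Poly I:C over control had 442 of 3138 (14.1%), with 96 higher (3.06%) and 346 lower (11%). Combination over phenformin had 106 of 2994 (3.54%), with 41 higher (1.37%) and 65 lower (2.17%). Phenformin over control had 98 of 3100 (3.16%), with 42 higher (1.35%) and 56 lower (1.81%). Combination over poly I:C had 54 of 2903 (1.86%), with 15 higher (0.517%) and 39 lower (1.34%).

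The split into higher and lower genes rested on the scaling. The median log2 ratio of all compared genes was -0.03 in combination over control, -0.10 in poly I:C over control, 0.03 in combination over phenformin, -0.06 in phenformin over control and 0.08 in combination over poly I:C. Under TMM scaling these medians were 0.10, 0.04, 0.07, 0.02 and 0.07. The counts then became 218 higher and 92 lower in combination over control, 187 and 173 in poly I:C over control, 56 and 59 in combination over phenformin, and 61 and 34 in phenformin over control. Of the 32 genes apart the same way in both poly I:C pairs, described below, 26 remained among 31 under TMM scaling, and those lost were Bcl2, Bhlhe40, Birc3, Elk4, Ndrg1 and Nek7.

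The layout holds each agent in 2 pairs that share no library: poly I:C over control and combination over phenformin for poly I:C, and phenformin over control and combination over poly I:C for phenformin. Of 2886 genes compared in both poly I:C pairs, 8 were higher in both (0.277%), 24 were lower in both (0.832%), together 32 or 1.11%, and 9 were higher in one and lower in the other (0.312%). Under TMM scaling 13 were higher and 18 lower in both. Of 2757 genes compared in both phenformin pairs, none was higher in both, 5 were lower in both (0.181%) and 7 went opposite ways (0.254%). The counts that agreed between the phenformin pairs were thus no larger than those that disagreed.

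Ccl5, a chemokine that attracts T cells and monocytes and is stored by activated CD8 T cells (chromosome 11, 83525778 to 83530518, minus strand, GRCm38), stood out among the genes higher in both poly I:C pairs. Its level was 6819 CPM in combination, 7507 in poly I:C, 3579 in phenformin and 1875 in control. Both poly I:C-treated libraries were therefore the highest, and phenformin alone lay between them and control. The ratio was 3.64 in combination over control (95% interval 3.52 to 3.75), 4.00 in poly I:C over control (3.88 to 4.13) and 1.91 in combination over phenformin (1.86 to 1.95). Phenformin over control was also 1.91 (1.84 to 1.98), whereas combination over poly I:C was 0.908 (0.895 to 0.922). Over all alternatives of processing the log2 ratio of combination over control stayed within 1.73 to 1.98 and that of poly I:C over control within 1.86 to 2.13.

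The difference in Ccl5 was carried by many cells. A Ccl5 UMI was found in 95% of combination, 94.5% of poly I:C, 84.6% of phenformin and 73.6% of control cells, and the 10 highest cells held 5.46 to 17.3% of its UMIs. With each cell thinned to 2000 UMIs, which left out 14 to 28 shallower cells per library, the shares were 89.9, 91.3, 74.3 and 61.6% in that order. In B cells, which should lack it, the thinned share was 23.2% of 142 cells in combination and 10.9% of 55 in poly I:C. It was 7.95% of 88 in phenformin and 1.67% of 60 in control. The source of this RNA in the B cell gate was not tested. Higher levels in both poly I:C-treated libraries than in phenformin and control were not particular to the CD8 gate. In CD4 T and myeloid cells, however, combination lay above poly I:C. Cycling CD8 cells had 2676 CPM in combination, 3038 in poly I:C, 1371 in phenformin and 723 in control. NK cells had 9400, 11778, 7881 and 6707 CPM in the same order, conventional CD4 T cells 643, 486, 307 and 247, and myeloid cells 3293, 1440, 775 and 514.

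**Figure D2:**
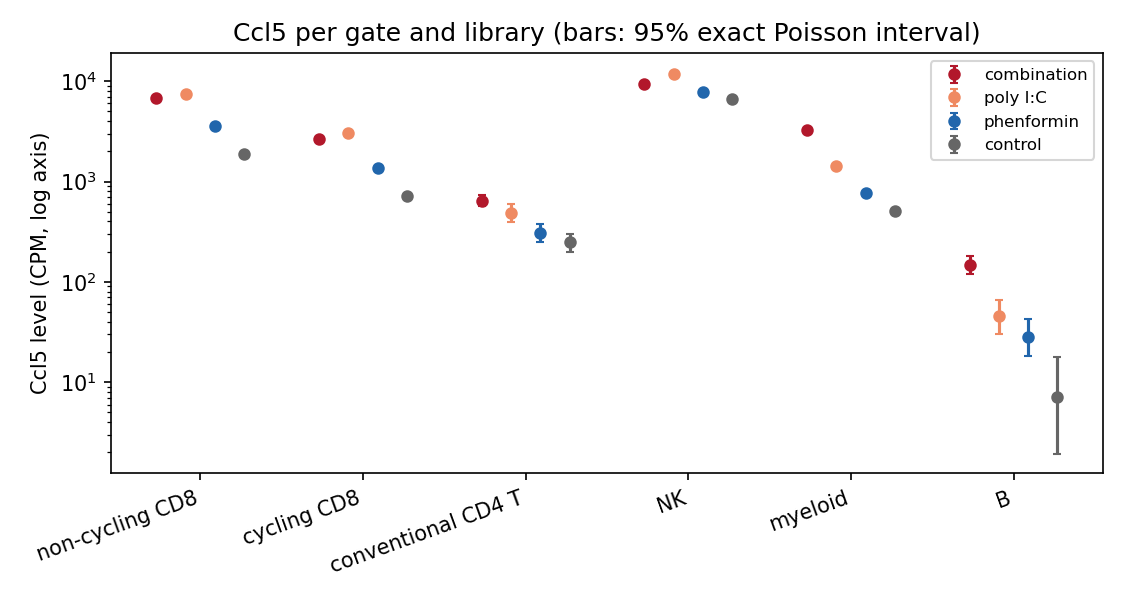
Ccl5 level (CPM, log axis) in 6 gates of each library, with 95% exact Poisson intervals that are smaller than the points in most gates. In the non-cycling and cycling CD8 gates poly I:C and combination are highest and control lowest, and the same 2 libraries are highest in every other gate.

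Chchd10, Vamp5, Gimap7 and Klre1 were among the remaining 7 genes higher in both poly I:C pairs. Chchd10, a protein of the mitochondrial intermembrane space, had 152 CPM in combination, 125 in poly I:C, 74.6 in phenformin and 46.6 in control. Its ratio was 2.68 in poly I:C over control (2.19 to 3.32) and 2.03 in combination over phenformin (1.74 to 2.38). Vamp5, of the SNARE family of vesicle proteins, had 83.7, 75.2, 48.0 and 31.6 CPM in combination, poly I:C, phenformin and control. Gimap7, a lymphocyte GTPase, had 152, 136, 89.9 and 87.2 CPM, and Klre1, a lectin-like receptor of NK and CD8 T cells, 86.5, 110, 47.7 and 68.4 CPM in that order. Ccl5 and Chchd10 stayed above the limit in both pairs under every alternative run, and Vamp5 under all but thinning. Gimap7 and Klre1 each missed the limit under 5 alternatives, among them thinning, a pseudocount of 20 CPM and the removal of cells with a Gzmc to Gzmg UMI. Cd27, a costimulatory receptor, narrowly missed the rule, with 223 CPM in combination, 182 in poly I:C, 114 in phenformin and 122 in control. Every one of these 5 genes was higher in both poly I:C-treated libraries than in phenformin and control. The choice of genes fixed the direction within each poly I:C pair, and Cd27 was added after its values were seen, so this is a description only.

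Cst3 (cystatin C, abundant in myeloid cells), C1qa (complement, made by macrophages) and Lgals7 (a galectin of epithelia) were the other 3. C1qa had 109 CPM in combination, 64.7 in poly I:C, 57.4 in phenformin and 40.6 in control, which is the order of the summed macrophage markers above. After removal of the gated cells with UMIs of other-lineage markers, which left 781, 674, 351 and 329 cells, the log2 ratio of C1qa was 0.36 in poly I:C over control and 0.51 in combination over phenformin, both under the 1.5-fold limit. C1qa is itself among the summed macrophage markers, which were used for this removal. Its fall under the limit there thus follows in part from the removal. Without the same cells, the log2 ratio of Cst3 became 0.86 and 0.16, and Lgals7 also missed the limit. The log2 ratio of Ccl5 without those cells was 2.05 in poly I:C over control and 0.85 in combination over phenformin, and that of Chchd10 was 1.60 and 0.97. Of the 32 genes that were apart the same way in both poly I:C pairs, 24 remained among 40 without those cells.

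**Figure D3:**
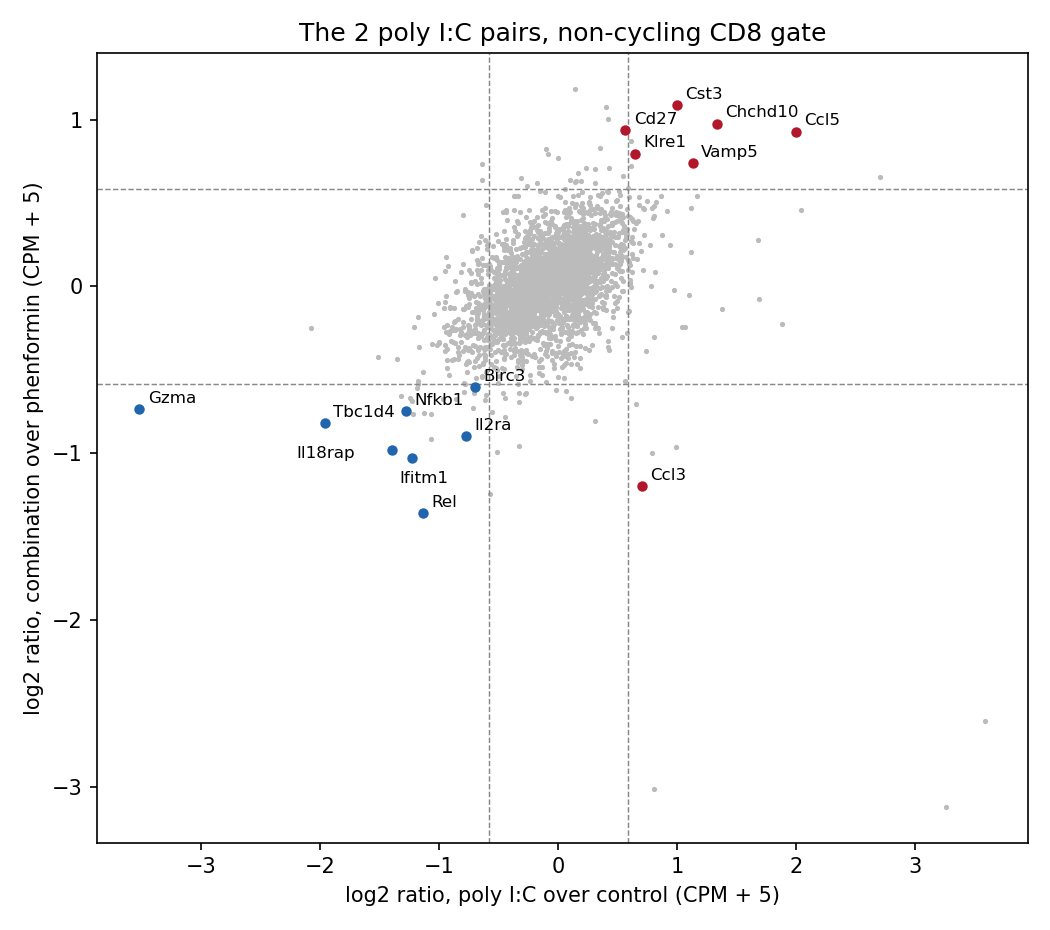
Log2 ratio of each gene in poly I:C over control (x axis) and combination over phenformin (y axis) in the non-cycling CD8 gate, for genes compared in both pairs, with dashed lines at 1.5-fold. Ccl5 and Chchd10 lie in the upper right, Rel, Ifitm1 and Il18rap in the lower left, and Ccl3 in the lower right.

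Genes lower in both poly I:C pairs held members of the NF-kB family, which transmits signals of antigen, costimulatory and cytokine receptors to the nucleus. Nfkb1, the p105 and p50 subunit, had 163 CPM in combination, 156 in poly I:C, 278 in phenformin and 386 in control. Both poly I:C-treated libraries were below both others. The ratio was 0.405 in poly I:C over control (0.367 to 0.446) and 0.587 in combination over phenformin (0.532 to 0.649). Rel, the c-Rel subunit prominent in activated lymphocytes, had 68.2 CPM in combination, 70.6 in poly I:C, 183 in phenformin and 162 in control. Its ratio was 0.437 in poly I:C over control (0.377 to 0.507) and 0.373 in combination over phenformin (0.324 to 0.428), while combination over poly I:C was 0.966 (0.828 to 1.13). Birc3, an inhibitor of apoptosis that NF-kB induces, had 31.5, 36.3, 50.5 and 62.0 CPM in combination, poly I:C, phenformin and control. Nfkb1 and Rel stayed below the limit in both pairs under every alternative run. Birc3 did not, and its log2 ratio in poly I:C over control and combination over phenformin was -0.70 and -0.61 as reported, -0.58 and -0.57 under TMM scaling, and -0.40 and -0.96 when cells were thinned. Birc3 also missed the limit in combination over phenformin with 4 UMIs of each gate sum, without cells with other-lineage markers, without cells with a Tcf7 UMI, and in both pairs with a pseudocount of 20 CPM.

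The promoter windows of Rel and Birc3 are shown because Rel was lower in each poly I:C pair under every alternative and Birc3 under some of them, and RefSeq (GRCm38.p6) gave a window for both. Each runs from 250 bases before to 50 bases after the gene start, written 5' to 3' on the minus strand, at chr11:23770920-23771219 for Rel and chr9:7873121-7873420 for Birc3. Capitals mark matches to the kappa B motif GGGANNNNCC, searched on both strands.

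Rel promoter: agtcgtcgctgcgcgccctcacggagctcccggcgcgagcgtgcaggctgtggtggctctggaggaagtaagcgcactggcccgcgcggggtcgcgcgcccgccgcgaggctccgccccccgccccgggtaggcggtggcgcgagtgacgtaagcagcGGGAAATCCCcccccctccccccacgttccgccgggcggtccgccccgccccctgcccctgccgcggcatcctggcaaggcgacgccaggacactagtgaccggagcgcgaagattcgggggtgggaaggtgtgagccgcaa

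Birc3 promoter: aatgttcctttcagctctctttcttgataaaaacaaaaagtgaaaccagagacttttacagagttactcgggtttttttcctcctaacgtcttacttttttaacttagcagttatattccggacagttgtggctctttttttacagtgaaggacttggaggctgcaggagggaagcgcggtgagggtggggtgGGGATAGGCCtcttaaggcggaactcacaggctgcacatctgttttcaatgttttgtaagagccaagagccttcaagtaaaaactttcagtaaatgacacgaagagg

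The Rel window held the motif once on each strand over the same 10 bases, starting 92 bases before the gene start, and the Birc3 window held 1 match starting 57 bases before it. The motif occurred in 6810 of 32851 promoter windows (20.7%) and in 841 of 3269 windows of genes compared here (25.7%), so a match is common and is only a description. The window of Nfkbie, the inhibitor IkB epsilon, held no match to these letters. Ccl5 and Nfkb1 are named only.

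Of the 20 genes in the list of NF-kB genes and feedback inhibitors, 0 were higher and 5 of 13 compared were lower in combination over control, with a list median of -0.38 beside -0.03 for all compared genes. In poly I:C over control 0 were higher and 6 of 13 lower, with a median of -0.46 beside -0.10. In combination over phenformin 0 were higher and 3 of 10 lower (median -0.28 beside 0.03). In phenformin over control 0 of 13 were lower (median -0.27 beside -0.06), and in combination over poly I:C 0 of 9 (median 0.04 beside 0.08). In these 5 comparisons 5.81%, 11%, 2.17%, 1.81% and 1.34% of all compared genes were lower. Besides the 3 genes above, the lower members were Nfkbie, Nfkbiz and, in poly I:C over control, Tnfaip3 (A20, which ends NF-kB signalling), at 471 CPM in combination, 400 in poly I:C, 495 in phenformin and 607 in control. Under TMM scaling the list median was -0.26, -0.34, -0.20, -0.20 and 0.04 in the 5 comparisons in that order. With cells thinned to 2000 UMIs the median in phenformin over control was 0.13.

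In cycling CD8 cells and in myeloid cells too, Nfkb1 and Rel were lower in combination and poly I:C than in phenformin and control. In cycling CD8 cells Nfkb1 had 138 CPM in combination, 141 in poly I:C, 198 in phenformin and 264 in control. Myeloid cells had 156, 163, 256 and 285 CPM in the same order. In B cells Nfkb1 was at 179 CPM in combination, 65.1 in poly I:C, 186 in phenformin and 189 in control, so only the poly I:C library was low there. Rel had 57.6 CPM in combination, 68.2 in poly I:C, 101 in phenformin and 128 in control in cycling CD8 cells, and 116, 107, 167 and 193 CPM in myeloid cells. In CD4 T cells Rel was close to level, at 259, 304, 301 and 324 CPM in combination, poly I:C, phenformin and control. B cells had 473, 111, 263 and 167 CPM of Rel in the same order, with combination highest.

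Il18r1, Il18rap, Il2ra, Itgb1, Rora, Ifitm1 and Bcl2 were also lower in both poly I:C pairs. Of 12 genes in the list of chemokine receptors and homing genes compared in both pairs, Itgb1 alone was, beside 0.832% of all genes compared in both. Il18r1 and Il18rap, the chains of the interleukin-18 receptor, had 61.3 and 45.2 CPM in combination, 69.4 and 49.3 in poly I:C, 107 and 94.0 in phenformin, and 157 and 138 in control. The Il18rap ratio was 0.357 in poly I:C over control (0.301 to 0.423) and 0.481 in combination over phenformin (0.401 to 0.577). Il2ra, the interleukin-2 receptor alpha chain induced by activation, had 53.0 CPM in combination, 63.9 in poly I:C, 103 in phenformin and 113 in control. Itgb1, integrin beta 1, had 143, 153, 231 and 371 CPM in combination, poly I:C, phenformin and control, and Rora, an orphan nuclear receptor, 237, 236, 407 and 556 CPM. Ifitm1, an interferon-inducible membrane protein, had 511 CPM in combination, 607 in poly I:C, 1050 in phenformin and 1432 in control. In all of these genes both poly I:C-treated libraries lay below phenformin, and phenformin below control. Here too the choice of genes fixed the direction within each poly I:C pair. Bcl2, which protects from apoptosis, followed the same order at 107, 124, 170 and 207 CPM in combination, poly I:C, phenformin and control. Bcl2 and Itgb1 depended on the processing. The log2 ratio in combination over phenformin was -0.64 for Bcl2 and -0.67 for Itgb1, and without cells with other-lineage markers it was -0.57 and -0.54, short of the limit. In poly I:C over control Bcl2 missed it at -0.58 under TMM scaling, and in combination over phenformin at -0.58 with a pseudocount of 20 CPM. In the same comparison Itgb1 missed it at -0.52 with 4 UMIs of each gate sum and at -0.58 without cells with a Tcf7 UMI.

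Granule genes differed among themselves. Gzmb, the main granzyme of effector CD8 T cells, had 1530 CPM in combination, 1174 in poly I:C, 1202 in phenformin and 889 in control. The ratio of combination over control was 1.72 (1.64 to 1.81), and the 3 treated libraries were all above control. A Gzmb UMI was found in 76.1% of combination, 75.2% of poly I:C, 64.9% of phenformin and 50.8% of control cells, and in 67.0, 62.6, 51.7 and 35.8% once thinned. Under the alternatives the log2 ratio of combination over control ranged from 0.56 to 1.73. Prf1, perforin, had 124 CPM in combination, 157 in poly I:C, 90.5 in phenformin and 107 in control, and Nkg7, a granule membrane protein, 2630, 2435, 2021 and 1683 CPM. No Prf1 ratio reached 1.5-fold, and the widest was 1.47 in poly I:C over control (1.27 to 1.70).

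Gzmk, a granzyme of memory-like CD8 T cells (chromosome 13, 113171608 to 113225908, minus strand), had 55.7 CPM in combination, 34.3 in poly I:C, 24.9 in phenformin and 6.84 in control. It had a UMI in 134 combination, 81 poly I:C, 40 phenformin and 8 control cells. Its ratio was 8.14 in combination over control (4.92 to 14.5) and 2.24 in combination over phenformin (1.72 to 2.95). The thinned share of cells with a Gzmk UMI was 9.40% in combination, 5.53% in poly I:C, 3.75% in phenformin and 0.867% in control, and it was at most 0.0571% in myeloid cells.

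Gzma, Gzmc and Gzmf had their highest level in control but rested on few cells. Gzma had 86.3 CPM in combination, 19.7 in poly I:C, 147 in phenformin and 278 in control, from 39, 22, 20 and 33 cells, and its 10 highest cells held 83.3 to 92.3% of its UMIs. Without cells with a Gzmc to Gzmg UMI the log2 ratio of Gzma reversed, to 0.68 in combination over control and 1.15 in phenformin over control, beside -1.63 and -0.90 as reported. In phenformin over control it was also 0.0905 with no Mki67 or Top2a UMI and 0.45 without the 10% of cells with the most UMIs. NK cells had 4068 to 5048 CPM of Gzma. Gzmc had 46.0 CPM in combination, 43.1 in poly I:C, 55.6 in phenformin and 198 in control, and Gzmf had 131, 225, 94.0 and 307 CPM in the same order. Gzmb, Gzmc, Gzmd, Gzme, Gzmf and Gzmg lie in 1 cluster on chromosome 14 (56117626 to 56262260, GRCm38) and are alike in sequence, so reads may have been split between Gzmc to Gzmg and their single values are uncertain. Cells with a UMI of any of Gzmc to Gzmg were 8.33% of combination (6.61 to 10.3%), 9.59% of poly I:C (7.66 to 11.8%), 14.1% of phenformin (10.8 to 18%) and 16.1% of control cells (12.5 to 20.3%). Of 16 members of the granule list compared in combination over control 3 were higher (Gzmb, Gzmk, Nkg7) and 4 lower (Gzma, Gzmc, Gzmd, Gzmf), and in poly I:C over control 0 of 15 were higher and 3 lower. The list median was 0.00 in combination over control and -0.01 in poly I:C over control, beside -0.03 and -0.10 for all compared genes. Of all compared genes 3.24% and 3.06% were higher and 5.81% and 11% lower in these comparisons.

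Cells with a Gzmc to Gzmg UMI differed from the others in every library in ways the split did not use. Gzmb was at 4073 CPM in them and 1238 in the rest in combination, 2228 and 1043 in poly I:C, 3445 and 750 in phenformin, and 3091 and 371 in control. Gzmb lies in the same cluster and is alike in sequence, and the part of shared reads in its difference was not tested. Ifitm1 was likewise higher, at 1518 and 395 CPM in combination and 2897 and 1088 in control. Ccl5 was lower, at 3649 against 7184 CPM in combination and 1430 against 1980 in control. Their median UMI count was 6004 against 4661 in combination and 7458 against 5750.5 in control, so they were also the deeper cells. Gzmb, Ifitm1 and Ccl5 were picked among genes with the same direction in all 4 libraries, while Pdcd1, Lag3 and Ccl4 did not keep 1 direction.

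**Figure D4:**
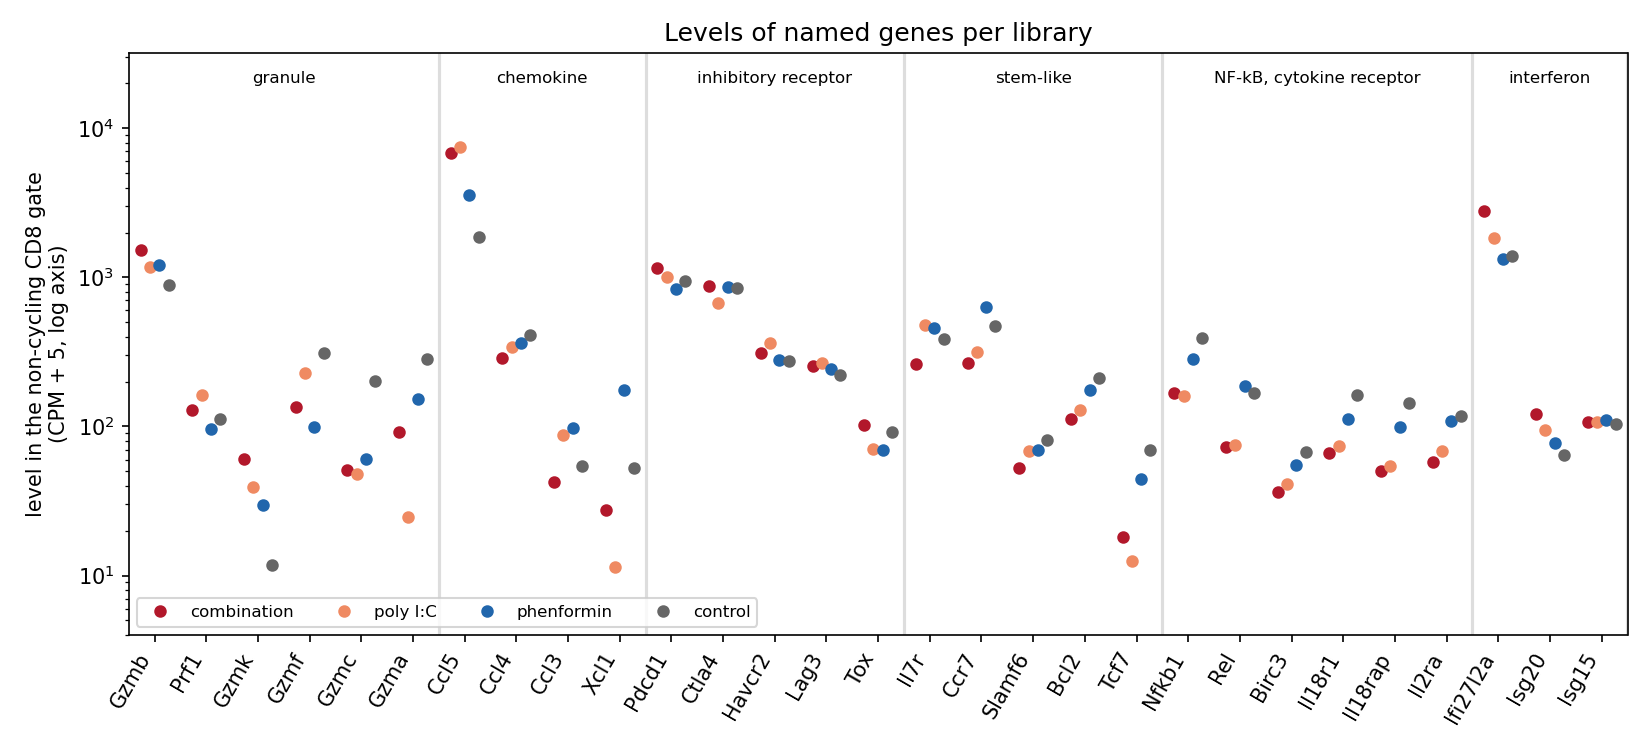
Level of named genes in the non-cycling CD8 gate (CPM + 5, log axis), 1 point per library, grouped by role. Ccl5 is highest in poly I:C and Gzmb, Gzmk and Ifi27l2a in combination, the NF-kB and cytokine receptor genes are lowest in those 2 libraries, and Lag3 and Isg15 are nearly level.

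Among cytokines and death ligands, Ifng (interferon-gamma) had 54.1 CPM in combination, 62.8 in poly I:C, 70.8 in phenformin and 98.8 in control. Cells with an Ifng UMI went another way, at 13.6% in combination, 18.1% in poly I:C, 14.6% in phenformin and 11.4% in control, since the 10 highest cells held 80.5% of the UMIs in control and 30.1 to 64.4% elsewhere. No order is read from it. Fasl, the ligand of the death receptor Fas, was at 177 CPM in combination, 153 in poly I:C, 151 in phenformin and 150 in control. Ccl4, a chemokine of effector cells, was at 281, 335, 356 and 407 CPM, and its ratio of combination over control was 0.690 (0.635 to 0.750). Xcl1, which draws cross-presenting dendritic cells, was at 22.4 CPM in combination, 6.37 in poly I:C, 170 in phenformin and 47.5 in control, and 10 phenformin cells held 98.4% of that library's Xcl1 UMIs.

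The inhibitory receptors Pdcd1, Lag3, Havcr2 and Ctla4 stayed under the 1.5-fold limit in every comparison. Pdcd1 had 1152 CPM in combination, 1000.4 in poly I:C, 828 in phenformin and 942 in control. The widest ratio, combination over phenformin, was 1.39 (1.32 to 1.46), under the 1.5-fold limit although its counting interval left out 1. Lag3 had 249, 260, 236 and 218 CPM in combination, poly I:C, phenformin and control, Havcr2 307, 361, 275 and 272, and Ctla4 866, 665, 855 and 847. Tox, a transcription factor of the exhausted state, had 96.8 CPM in combination, 65.7 in poly I:C, 65.0 in phenformin and 86.8 in control. Of 17 members of the list of inhibitory receptors and exhaustion genes compared in combination over control 0 were higher and 3 lower (Nr4a3, Bhlhe40, Nt5e). In poly I:C over control 1 of 17 was higher (Cd160, also an inhibitory receptor) and 5 were lower. The list median was 0.03 and -0.35 in these comparisons, beside -0.03 and -0.10 for all compared genes. Of all compared genes 3.24% and 3.06% were higher and 5.81% and 11% lower. The lower list members included Nr4a3 and Nr4a2, nuclear receptors induced by antigen receptor signals, and Bhlhe40, a transcription factor of activated T cells. Nr4a3 had 68.2 CPM in combination, 52.4 in poly I:C, 93.3 in phenformin and 159 in control.

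Cxcr6 and Ccr7 differed in opposite ways. Cxcr6 had 700 CPM in combination, 653 in poly I:C, 480 in phenformin and 431 in control, a ratio of 1.63 in combination over control (1.51 to 1.75). Ccr7, the receptor that guides T cells to lymph nodes, had 263, 313, 628 and 467 CPM in combination, poly I:C, phenformin and control. Its ratio was 0.418 in combination over phenformin (0.389 to 0.449) and 0.562 in combination over control (0.518 to 0.610).

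Tcf7, which keeps the stem-like pool (chromosome 11, 52252371 to 52283014, minus strand), was lower in combination and poly I:C than in phenformin and control. It had 13.2 CPM in combination, 7.60 in poly I:C, 39.7 in phenformin and 64.1 in control. The ratio was 0.205 in combination over control (0.151 to 0.277), 0.118 in poly I:C over control (0.0803 to 0.171) and 0.620 in phenformin over control (0.482 to 0.795). Combination over phenformin, below the 50 CPM limit, was 0.331 (0.240 to 0.453). Cells with a Tcf7 UMI were 32 of 900 in combination (3.56%, 2.44 to 4.98%), 27 of 813 in poly I:C (3.32%, 2.20 to 4.80%), 48 of 390 in phenformin (12.3%, 9.22 to 16%) and 66 of 360 in control (18.3%, 14.5 to 22.7%). The intervals of both poly I:C-treated libraries lay below those of the other 2. After thinning the shares were 2.06, 1.51, 7.77 and 9.54% in that order, and at most 1.14% in B cells. The rule itself removes cells with Lef1, which often goes with Tcf7, so these shares describe only the cells it left.

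Of the 22 genes in the list of naive, memory and stem-like genes, 0 were higher and 4 of 9 compared were lower in combination over control (Tcf7, Ccr7, Bcl2, Slamf6), and 0 and 3 of 9 in poly I:C over control. Of all compared genes 5.81% and 11% were lower. In combination over phenformin 1 was higher (Ly6c2) and 4 of 9 lower. In phenformin over control 1 was higher (Xcl1, carried by few cells as given above) and 1 of 10 lower. Among all compared genes 1.37% and 1.35% were higher and 2.17% and 1.81% lower, in that order. The list median was -0.57, -0.56, -0.46 and -0.12 in these 4 comparisons, beside -0.03, -0.10, 0.03 and -0.06 for all compared genes. Il7r, the interleukin-7 receptor, went its own way, at 256 CPM in combination, 475 in poly I:C, 451 in phenformin and 383 in control. Itgae, an integrin of tissue-resident cells, and Klrg1, a receptor of short-lived effector cells, were under the compared minimum in every comparison, at 7.80 to 24.5 and 1.85 to 4.73 CPM.

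Cells with a Tcf7 UMI differed from those without in the same direction in all 4 libraries for each gene named next. Their median UMI count was 5232.5 against 4813 in combination and 6394 against 5885.5 in control. Ccr7 was at 1309 CPM with and 219 without a Tcf7 UMI in combination, 1108 and 279 in poly I:C, 1208 and 540 in phenformin, and 824 and 375 in control. Slamf6, a marker of the stem-like pool, was at 307 against 36.4 CPM in combination and 147 against 58.2 in control. Gzmb was at 332 with and 1580 without in combination, 441 and 1205 in poly I:C, 228 and 1351 in phenformin, and 195 and 1070 in control. Havcr2 was at 56.2 against 318 CPM in combination and 89.0 against 319 in control, and Prf1, Entpd1, Lag3, Cxcr6 and Ccl5 were lower in cells with a Tcf7 UMI in each library. The genes named so far were picked among those with the same direction in all 4 libraries, so that agreement is no result. Tox, Il7r, Ccl4, Gzma, Gzmk, Cd27 and Ifng were among those that did not keep 1 direction. Leaving out all cells with a Tcf7 UMI kept the log2 ratio of Ccl5 at 1.73 in combination over control and 1.86 in poly I:C over control, and that of Rel at -1.11 in both.

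Interferon-stimulated genes, which respond to type I interferon, were mixed at day 4. Isg15 had 102 CPM in combination, 102 in poly I:C, 105 in phenformin and 98.8 in control, and its 5 ratios lay between 0.970 and 1.06. Ifi27l2a was highest in combination, with 2803 CPM, against 1819 in poly I:C, 1329 in phenformin and 1378 in control. Its ratio was 2.11 in combination over phenformin (2.04 to 2.19), 1.54 in combination over poly I:C (1.5 to 1.58) and 1.32 in poly I:C over control (1.27 to 1.37). Isg20, a nuclease, had 117, 89.1, 71.9 and 59.4 CPM in combination, poly I:C, phenformin and control, and Ly6a (Sca-1) 660, 629, 469 and 392. Of 51 genes in the list of type I interferon response genes, 4 of 20 compared were higher and 2 lower in combination over control, 1 of 19 higher and 3 lower in poly I:C over control, and 4 of 19 higher and 1 lower in combination over phenformin. Of all compared genes 3.24%, 3.06% and 1.37% were higher and 5.81%, 11% and 2.17% lower. The list median was -0.06, -0.10 and 0.25 in these 3 comparisons, beside -0.03, -0.10 and 0.03 for all compared genes, and the first and second of these became 0.07 and 0.04 under TMM scaling.

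Maf, a transcription factor, was higher in combination than in every other library, at 86.3 CPM in combination, 34.9 in poly I:C, 29.0 in phenformin and 32.5 in control. The ratio was 2.47 in combination over poly I:C (2.06 to 2.97). Maf is also expressed by macrophages, whose summed markers were highest in combination as well, and without the cells with other-lineage marker UMIs its log2 ratio was 1.43 in combination over poly I:C.

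Nuclear-encoded genes of complex I, the target of phenformin, differed little. Of 34 to 36 nuclear-encoded complex I genes compared, Ndufa12, an accessory subunit, was the only one apart by 1.5-fold, with 103 CPM in combination, 102 in poly I:C, 103 in phenformin and 65.4 in control. The list median was 0.16 in combination over control, 0.15 in poly I:C over control, 0.00 in combination over phenformin, 0.18 in phenformin over control and 0.02 in combination over poly I:C. Genes encoded by the mitochondrial genome had list medians of -0.40, -0.31, -0.31, -0.05 and 0.00 in the same order. The medians of all compared genes were -0.03, -0.10, 0.03, -0.06 and 0.08. All 12 mitochondrial genes compared in both poly I:C pairs were below 0 in both, but the share of all compared genes below 0 in both was not computed. By 1.5-fold, 3 of 12 were lower in combination over control (mt-Atp8, mt-Nd4l, mt-Nd5) and 3 of 12 in combination over phenformin (mt-Atp8, mt-Nd3, mt-Nd4l). Of all compared genes 5.81% and 2.17% were lower in these comparisons. mt-Atp8 and mt-Nd4l overlap neighbouring genes, so their counts are uncertain. The median share of mitochondrial UMIs per cell was 2.98% in combination, 2.87% in poly I:C, 3.55% in phenformin and 3.70% in control.

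The 5 genes lower in both phenformin pairs were Gzmf, Iigp1 (an interferon-inducible GTPase) and the myeloid or epithelial genes Lcn2, Cxcl2 and S100a9. Iigp1 had 28.8 CPM in combination, 138 in poly I:C, 50.1 in phenformin and 85.9 in control, from 18 to 42 cells per library. S100a9, a neutrophil gene, had 33.1, 67.6, 15.6 and 68.8 CPM in combination, poly I:C, phenformin and control. Without the gated cells with other-lineage marker UMIs only Gzmf remained of these 5, and without the 10% of cells with the most UMIs Gzmf itself was lost. S100a9 is among the markers used for the first removal, so its loss there follows in part from the removal.

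The 4 libraries served as replicates for a comparison of the gate with other lymphocytes of the same libraries. Conventional CD4 T cells (the same rule, but with a Cd4 UMI and no Cd8a or Cd8b1 UMI) numbered 86 in combination, 37 in poly I:C, 54 in phenformin and 73 in control, and NK cells (at least 2 UMIs of Ncr1 and Klrb1c, no UMI of Cd3, Cd4 or Foxp3, no clause on Lef1) 56, 49, 60 and 92. In shallow cells the absence of a Foxp3 UMI does not exclude a regulatory T cell, so the CD4 gate may hold some. Their number was not tested. Summed UMIs were tested with edgeR's quasi-likelihood test with the library as a block and Benjamini-Hochberg adjustment over all genes. Against CD4 T cells 190 of 7952 genes were higher in the CD8 gate (2.39%) and 350 lower (4.4%) at 2-fold or more and an adjusted p under 0.05. Against NK cells 325 of 8027 were higher (4.05%) and 390 lower (4.86%). Markers of other cells also differed between the gates. Summed neutrophil markers were at 25.9 to 132 CPM in the CD8 gate, against 12.9 to 2736 in CD4 T cells and 17.3 to 1324 in NK cells, and summed epithelium markers at 89.9 to 507 CPM, against 420 to 1282 and 25.9 to 1241. Krt14, Krt5 and Epcam, 3 of the 7 epithelium markers tested, and Pecam1 were lower in the CD8 gate than in CD4 T cells and Ly6c2 was higher, while S100a8, S100a9, Fcgr3 and Pecam1 were lower and Krt7 higher than in NK cells. Their part in the counts was not tested. Of 7710 genes in both tests 41 were higher in the CD8 gate than in both other cell types, and 56 were lower than in both.

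Against CD4 T cells the CD8 gate was higher in cytotoxic and NK receptor genes. Ccl5 was higher in 4 of 4 libraries with a log2 fold change of 3.43 ± 0.13 (SE; edgeR adjusted p = 1.5e-08), and Ccl4 at 5.17 ± 0.40 (adjusted p = 4.9e-06 by edgeR). Klre1 and Crtam, receptors of cytotoxic lymphocytes, had no UMI in any CD4 sum and were at least 35.4-fold and 15.7-fold higher against a floor of 3 UMIs over the 4 CD4 sums. Prf1 had 90.5 to 157 CPM in the CD8 gate against 0 to 5.32 in CD4 T cells. Klrd1 (CD94) and Klrk1 (NKG2D) were higher by 3.59 ± 0.16 and 3.48 ± 0.21 on the log2 scale (edgeR adjusted p = 3.4e-08 and 7.4e-07), each in 4 of 4 libraries. Of the granule list 9 of 18 tested were higher and 2 lower, and of the NK receptor list 7 of 13 were higher and 1 lower, with list medians of 1.26 and 2.37 beside 0.02 for all genes. Among all genes tested against CD4 T cells 2.39% were higher and 4.4% lower.

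Genes lower in the CD8 gate than in CD4 T cells included cytokine receptors and members of the TNF family. The part of any regulatory T cells left in the CD4 gate in these values was not tested. Il1rl1, the interleukin-33 receptor, had 0.206 to 8.12 CPM in the CD8 gate against 167 to 284 in CD4 T cells (log2 fold change -6.75 ± 0.42, edgeR adjusted p = 8.1e-07). Tnfsf8, the CD30 ligand, had 5.34 to 29.4 against 294 to 420 CPM, and Ccr4, a chemokine receptor of helper and regulatory T cells, 0.205 to 1.38 against 30.4 to 50.5 CPM. Of the NF-kB list 0 of 20 were higher and 7 lower, among them Rel (-1.44 ± 0.21, adjusted p = 0.00066 by edgeR) and Nfkb1 (-1.14 ± 0.13, adjusted p = 7.2e-05 by edgeR). Tcf7 was lower by 1.56 ± 0.25 on the log2 scale (edgeR adjusted p = 0.0013), in 4 of 4 libraries. Of the naive, memory and stem-like list 1 of 17 was higher and 6 were lower. For both lists, the shares among all genes tested against CD4 T cells were 2.39% higher and 4.4% lower.

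Against NK cells, T cell and inhibitory receptor genes were among those higher in the CD8 gate. The NK gate asked for Ncr1 and Klrb1c UMIs and no Cd3 UMI, so its T cell and NK receptor levels follow in part from the rule. Themis and Cd5, which tune T cell receptor signals, had no UMI in any NK sum and were at least 38.8-fold and 35.2-fold higher in the CD8 gate by the same floor. Lag3 was higher by 5.10 ± 0.32 (edgeR adjusted p = 2.3e-07), Havcr2 by 3.75 ± 0.27 and Ctla4 by 2.95 ± 0.25 on the log2 scale (edgeR adjusted p = 8.2e-07 and 3.7e-06). The inhibitory receptor list had 10 of 26 tested members higher and 6 lower. Lag3 and Havcr2 were also higher than in CD4 T cells, by 1.52 ± 0.21 and 1.59 ± 0.20 (edgeR adjusted p = 0.00042 and 0.00018). Gzma was lower in the CD8 gate than in NK cells by 5.43 ± 0.48 (edgeR adjusted p = 4.4e-06) and Eomes, a T-box factor of NK and memory cells, by 2.31 ± 0.14 (adjusted p = 1.5e-07 by edgeR), each in 4 of 4 libraries. NK lectin receptors such as Klra4 and Klrb1f had at most 3.85 and 0.411 CPM in the CD8 gate against 219 to 399 and 79.6 to 121 CPM in NK cells. Gzmb had a log2 fold change of 0.11 ± 0.13 against NK cells (edgeR adjusted p = 0.64), higher in 2 of 4 libraries, which does not show that the levels were alike. Of the NK receptor list 0 of 18 tested were higher and 14 lower. Among all genes tested against NK cells 4.05% were higher and 4.86% lower.

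**Figure D5:**
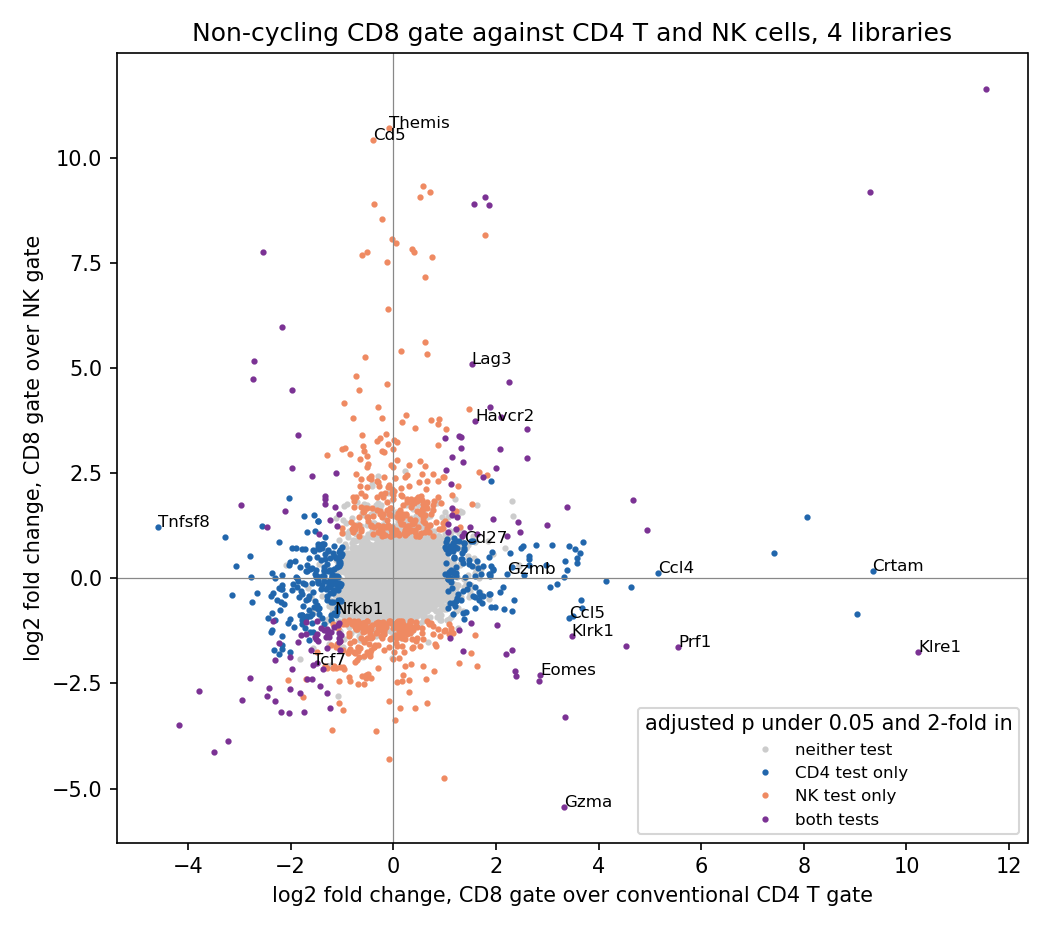
Log2 fold change of the non-cycling CD8 gate over conventional CD4 T cells (x axis) and over NK cells (y axis), 1 point per gene tested in both, coloured by which test called it (edgeR adjusted p under 0.05 and at least 2-fold). Lag3 and Havcr2 lie in the upper right, Klre1, Prf1 and Gzma are higher than CD4 but lower than NK, and Tcf7 and Nfkb1 are in the lower left; for genes with no UMI in a gate, such as Klre1 and Themis, the fitted position depends on the prior count and is no bound.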

How the data were processed

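The deposited counts are raw: each matrix gives, for 1 of 4 libraries, the UMIs of 27998 features in every called barcode. Cell Ranger 3.1.0 made them, per the file headers. The submitters' processing notes name mm10 and GRCm38, and no label records a later filter. Depth is given above as UMI sums per gate. Barcodes needed 200 detected genes and a mitochondrial share below 20% of UMIs, and were then gated by the rule stated above. Members, gene lists (25) and marker lists (14) were chosen with earlier results of these data known; 11 of 653 list symbols had no match in the files. The members of a list were counted among compared genes only, without a test.

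UMIs were summed per gate and scaled to CPM (per 1000000). Ratios of 2 libraries have the exact 95% interval conditional on the total of both counts, and no test was made between treatments. Sums of the CD8, CD4 T and NK gates were tested with edgeR 4.0.16 in R 4.3.3 (TMM, filterByExpr, quasi-likelihood), with the library as block because the 3 gates come from the same 4 libraries. On simulated counts with 100 genes changed per fold size, an adjusted p under 0.05 recovered 89% of 2-fold and 99% of 4-fold changes against CD4 T cells. Against NK cells it recovered 74% and 100%, and 6 and 2 unchanged genes were called against CD4 T and NK cells. The 2-fold limit of the reported calls was not applied there, so these shares do not describe those calls. The simulation left out genes with the lowest counts and used a common dispersion without library effects on single genes. DESeq2 1.42.0 was an alternative. Whether replicates are separate tumours is not stated, so p-values measure the spread between these libraries.

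Named genes were the gate genes and markers, the 10 highest and 10 lowest of each comparison and test, those apart in both pairs of an agent, the 5 highest and lowest by combination minus both single agents plus control, up to 4 members of a list and a fixed set of effector genes; the text gives those whose roles bear on CD8 T cells, with Cd27, C1qa and other genes added after their values were seen. Thinning drew 2000 UMIs per cell without replacement. Intervals and the floor of 3 UMIs cover counting error only. Gene positions are from GENCODE vM21, and promoters from RefSeq, GRCm38.p6. 1 gene of the fixed set is not reported here.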

Additional observations from a re-analysis of the deposited data

Results flagged for a closer look

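Genes that went opposite ways in the 2 pairs of an agent were singled out, with every value a log2 ratio. None of these differences was tested, since each treatment had 1 library. Between poly I:C over control and combination over phenformin, Sparc was at 3.25 and -3.12, and Mgp at 3.59 and -2.61. Both are made by stromal cells, and the summed fibroblast or endothelium markers in the gate were highest in poly I:C and phenformin. Cxcl9, a chemokine induced by interferon-gamma, was at 0.80 and -3.01, and Ccl3, a chemokine of activated T and myeloid cells, at 0.70 and -1.20. Jun, a subunit of the immediate early factor AP-1, was at 0.99 and -0.96. Emp1 was at 0.78 and -1.0, Iigp1 at 0.65 and -0.71, Ly6d at -0.64 and 0.74, and Grap2, an adaptor of T cell receptor signalling, at -0.64 and 0.64. Without gated cells with other-lineage marker UMIs, the poly I:C over control value was -0.33 for Mgp, -0.47 for Jun and -0.44 for Iigp1, and the combination over phenformin value was 0.0583 for Mgp, 0.15 for Cxcl9 and -0.42 for Ly6d.

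Between phenformin over control and combination over poly I:C, Sparc was at 4.10 and -2.28, Mgp at 2.89 and -3.30, and Cxcl9 at 2.69 and -1.12. Mt1, a metal-binding metallothionein, was at 1.15 and -0.61, Ccl3 at 0.85 and -1.05, and Gzma at -0.90 and 1.89. Without gated cells with other-lineage marker UMIs, Mgp was at -0.16 and 0.23. Gzma in phenformin over control was 0.0905 with no Mki67 or Top2a UMI, 0.45 without the 10% of cells with the most UMIs and 1.15 without cells with a Gzmc to Gzmg UMI.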

How the results depend on the processing

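No paired analysis was possible because each treatment had 1 library and no replicate number, and leaving out a replicate was likewise not possible between treatments. In the comparisons of gates, where the replicate block is the library, 516 genes were apart from CD4 T cells and 756 from NK cells without the block, beside 540 and 715 with it. DESeq2 called 479 and 631, and leaving out 1 library gave 416 to 508 and 557 to 683. Removal of cells with other-lineage markers, with a Tcf7 UMI or with a Gzmc to Gzmg UMI, and gating of thinned cells, were chosen after seeing the data. The causes of the differences that follow were not tested.

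The share of CD8 cells became 12.1% in combination, 13.3% in poly I:C and 6.71% in control with 1 UMI of each gate sum, and 8.38% in combination, 9.81% in poly I:C, 5.89% in phenformin and 5.05% in control with 4. It was 8.67, 9.84, 5.65 and 4.30% in that order with no Mki67 or Top2a UMI, and 11.7% in combination, 7.96% in phenformin and 6.59% in control on thinned cells. Counts of genes at least 1.5-fold apart in combination over control, poly I:C over control, combination over phenformin, phenformin over control and combination over poly I:C were 589, 863, 256, 278 and 131 with limits of 20 CPM and 10 UMIs, and 1087, 1511, 628, 785 and 408 with no limit. Both poly I:C pairs then shared 78 and 138 genes, and both phenformin pairs 12 and 32. Thinning of cells gave 448 in combination over control, 213 in combination over phenformin, 255 in phenformin over control and 55 in both poly I:C pairs. A pseudocount of 20 CPM gave 169 in combination over control, 254 in poly I:C over control, 60 in phenformin over control and 21 in both poly I:C pairs, and a mean over cells 31 in combination over poly I:C and 54 in both poly I:C pairs. Combination over poly I:C had 25 without the 10% of cells with the most UMIs and 28 without other-lineage marker cells. Both phenformin pairs shared 3 with the stricter cell filter, 2 without the cells with the most UMIs, 1 without cells with 9 other-lineage genes, 2 without other-lineage marker cells and 2 without Tcf7 cells.

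Changes of sign are listed for genes given in the text that were at least 1.5-fold apart, and for the NF-kB list median. With cells of at least 500 genes and under 10% mitochondrial UMIs, log2 ratios that changed sign were, in combination over control Iigp1 0.87, in phenformin over control Iigp1 1.58. With 1 UMI of each gate sum they were, in combination over control Lcn2 0.46, in combination over phenformin Iigp1 0.39, in combination over poly I:C Lcn2 0.0733. With 4 UMIs they were, in combination over control Lcn2 0.021, in combination over phenformin Cxcl9 0.18 and Sparc 0.45, in phenformin over control Iigp1 1.40. With no Mki67 or Top2a UMI they were, in combination over control Cxcl2 0.63, Ly6d 0.22 and S100a9 1.49, in poly I:C over control Cxcl9 -0.47 and Ly6d 0.19, in phenformin over control Ccl3 -0.21, Cxcl2 0.46, Gzma 0.0905 and S100a9 0.47. Without the 10% of cells with the most UMIs they were, in poly I:C over control Iigp1 -0.16, Jun -0.31 and Mgp -0.23, in combination over phenformin Cxcl9 0.062, Ly6d -0.0404, Mgp 0.43, Sparc 0.21 and Xcl1 0.26, in phenformin over control Ccl3 -0.57, Gzma 0.45, Iigp1 0.0817, Mgp -0.39 and Xcl1 -0.64, in combination over poly I:C Cxcl9 0.16, Gzmf 0.22 and Mgp 0.28. Without cells with 3 or more UMIs of 9 other-lineage genes they were, in combination over control Cxcl2 0.67, Lgals7 -0.013 and S100a9 0.65, in poly I:C over control Mgp -0.23, in combination over phenformin Mgp 0.21, in phenformin over control Cxcl2 0.72, Iigp1 0.81, Mgp -0.23 and S100a9 0.19, in combination over poly I:C Cxcl2 0.24, Lcn2 0.0494, Mgp 0.20 and S100a9 0.62. Without cells with other-lineage marker UMIs they were, in combination over control Cst3 -0.37, Cxcl2 0.60, Lgals7 -0.22 and S100a9 0.75, in poly I:C over control Iigp1 -0.44, Jun -0.47 and Mgp -0.33, in combination over phenformin Cxcl9 0.15, Ly6d -0.42 and Mgp 0.0583, in phenformin over control Cxcl2 0.30, Mgp -0.16 and S100a9 0.29, in combination over poly I:C Col1a1 0.0828, Cxcl2 1.13, Lcn2 0.0828, Mgp 0.23 and S100a9 0.69. Without cells with a Tcf7 UMI they were, in combination over control Iigp1 1.11, Lcn2 0.14 and S100a9 2.12, in phenformin over control Iigp1 1.90 and S100a9 1.36. Without cells with a Gzmc to Gzmg UMI they were, in combination over control Gzma 0.68, in phenformin over control Ccl3 -0.32 and Gzma 1.15. As a mean over cells they were, in poly I:C over control Iigp1 -0.0173. Thinned to 2000 UMIs they were, in phenformin over control the NF-kB list median 0.13. For named genes given in the text, 4441 of 5474 alternative values stayed within their counting interval, 959 moved and 74 changed sign. For the other named genes 6012 of 6868 stayed, 764 moved and 92 changed sign. Genes under 50 CPM, such as Tcf7 in treated libraries, rest on few UMIs, and shallow cells limit every share of cells with a UMI.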
